A study of Mus musculus with 4 samples.

Results

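CpG-rich promoters without a called peak of PHF2 were examined in mouse neural stem cells. PHF2 is a histone demethylase of the Jumonji family. The members were windows of 500 bp either side of the 5'-most annotated start of each protein-coding gene on chromosomes 1 to 19. They were chosen by 2 criteria, a CpG observed/expected ratio of 0.8 or more and no PHF2 peak within 2 kb of the start. The ratio is the number of CpG dinucleotides divided by the number that the C and G content would give by chance. Of 20807 windows, 4405 were CpG-rich by this criterion, and 1382 of these had no PHF2 peak. That is 31.4% of the CpG-rich windows (95% exact binomial interval 30.0% to 32.8%), where 71.2% of all windows had no peak. The other 3023 CpG-rich windows had a peak.

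The neural stem cells, of WT genotype and C57BL/6J strain, were taken at stage E12.5 and grown with EGF at 20 ng/ml and FGF at 10 ng/ml. The series held 4 samples in 4 groups of 1, namely a ChIP of PHF2 (Cell Signaling antibody D45A2), a ChIP of H3K9me2 (Abcam antibody ab1220) and an input for each, all from cells of this genotype, stage and culture. H3K9me2 is histone H3 dimethylated at lysine 9, a mark of silent chromatin. Both ChIP samples were deposited as lists of called regions, with 5992 PHF2 peaks and 36171 H3K9me2 regions. With 1 sample per target and no read counts in these lists, the depth is unknown, no spread between cultures could be measured and no test was run. A window without a peak is therefore one where no peak was called in 1 sample, and no binding below the caller's threshold can be seen. All intervals cover counting error only, and neighbouring windows are not independent.

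CpG islands are stretches of DNA that keep their CpG dinucleotides because they are usually free of DNA methylation, and most promoters of broadly expressed genes lie in one. The PHD finger of PHF2 binds H3K4me3, the histone mark of active CpG island promoters. Another class of CpG islands belongs to regulators of development, which Polycomb complexes cover with H3K27me3 in cells that do not use them, and a smaller class belongs to germline genes, whose islands can be methylated and silent in somatic cells. The files held no expression, H3K4me3, H3K27me3 or DNA methylation, so the state of these promoters was not measured here.

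The 200 bases before the start show what such promoters look like, since windows with and without a peak both carry dense CpG. Each is printed 5' to 3' on the strand of its gene from the GRCm38 (mm10) genome of RefSeq, with CpG in capitals. The first 4 had no PHF2 peak and were taken from families described below. Hoxa5 and Barhl2 encode homeodomain factors, Tcf15 a basic helix-loop-helix factor of somites, and Stag3 the meiotic cohesin subunit. The last pair had a peak, and belongs to Foxk2, which encodes a broadly expressed forkhead factor, and Rplp1, which encodes a ribosomal protein.
Hoxa5, chr6:52204588-52204787, minus strand: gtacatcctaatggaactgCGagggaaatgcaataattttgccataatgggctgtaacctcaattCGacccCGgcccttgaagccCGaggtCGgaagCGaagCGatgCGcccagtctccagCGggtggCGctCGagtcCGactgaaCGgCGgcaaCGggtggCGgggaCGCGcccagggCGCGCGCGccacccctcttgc
Barhl2, chr5:106458167-106458366, minus strand: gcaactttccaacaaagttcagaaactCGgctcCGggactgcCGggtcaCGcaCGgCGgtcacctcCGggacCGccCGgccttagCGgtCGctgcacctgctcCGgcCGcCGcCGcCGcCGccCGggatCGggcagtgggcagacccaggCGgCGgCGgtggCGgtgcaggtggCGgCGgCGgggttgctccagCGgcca
Tcf15, chr2:152143361-152143560, plus strand: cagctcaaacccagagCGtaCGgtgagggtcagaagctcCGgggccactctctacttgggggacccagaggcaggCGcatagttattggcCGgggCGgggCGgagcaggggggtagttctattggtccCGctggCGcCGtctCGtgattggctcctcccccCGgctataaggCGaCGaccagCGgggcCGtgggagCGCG
Stag3, chr5:138280040-138280239, plus strand: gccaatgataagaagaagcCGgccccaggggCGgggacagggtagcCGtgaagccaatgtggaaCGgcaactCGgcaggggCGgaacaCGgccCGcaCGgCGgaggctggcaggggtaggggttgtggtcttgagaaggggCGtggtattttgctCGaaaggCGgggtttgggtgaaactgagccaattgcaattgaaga
Foxk2, chr11:121259790-121259989, plus strand: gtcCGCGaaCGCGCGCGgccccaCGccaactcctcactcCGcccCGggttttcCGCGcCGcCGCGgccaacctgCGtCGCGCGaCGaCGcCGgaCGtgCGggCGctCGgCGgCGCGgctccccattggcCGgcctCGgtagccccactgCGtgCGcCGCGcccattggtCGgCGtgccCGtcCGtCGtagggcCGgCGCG
Rplp1, chr9:61914543-61914742, minus strand: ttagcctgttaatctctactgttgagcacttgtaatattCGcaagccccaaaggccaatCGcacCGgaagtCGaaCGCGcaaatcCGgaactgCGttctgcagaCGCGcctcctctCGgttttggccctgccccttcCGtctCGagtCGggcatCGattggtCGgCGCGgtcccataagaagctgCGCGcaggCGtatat
The stretches without a peak held 22 CpG at Hoxa5, 27 at Barhl2, 18 at Tcf15 and 13 at Stag3. The stretches with a peak held 42 CpG at Foxk2 and 21 at Rplp1, so Barhl2 and Hoxa5 carried at least as many as the ribosomal protein promoter that was bound.

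The share of windows without a peak fell with CpG content. It was 35.1% at ratios of 0.8 to 0.9 (899 of 2562 windows), 27.4% at 0.9 to 1.0 (395 of 1442), 22.5% at 1.0 to 1.1 (82 of 364) and 16.2% at 1.1 or more (6 of 37). PHF2 peaks defined the members, so these values are a description, but the criteria do not fix how the share changes with CpG content. The 6 most CpG-rich windows without a peak belonged to Pde8a (ratio 1.15), which encodes a cyclic AMP phosphodiesterase, Smarcad1 (1.14), a chromatin remodeller, Nfix (1.12), a transcription factor of neural progenitors, Klf14 (1.11), an imprinted zinc finger factor, U2af2 (1.11), the large subunit of the splicing factor U2AF, and Dot1l (1.10), the H3K79 methyltransferase. Median GC content was 63.4% in windows without a peak and 64.4% in windows with one, and the median ratio was 0.868 and 0.890.

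**Figure D1:**
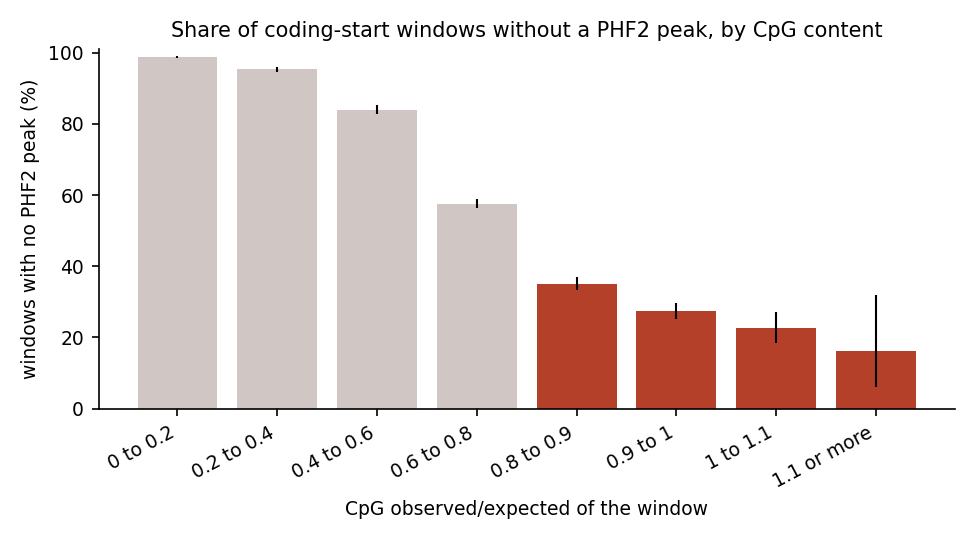
Share of coding-start windows with no PHF2 peak within 2 kb, in percent, by the CpG observed/expected ratio of the window, with exact 95% binomial intervals. Red bars are the CpG-rich windows, in which the share went down in steps to 16.2%, and grey bars the windows below a ratio of 0.8.

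Most members lay far from any PHF2 peak. The median distance to the nearest peak was 72041 bp, 551 of the 1382 (39.9%) were over 100 kb from one, and 22 (1.59%) were between 2 kb and 5 kb away. Over all windows the median was 49100 bp, and 28.8% of these had a peak within 2 kb. The criteria left out starts within 2 kb of a peak, so the 2 medians do not compare like windows and the distances of members are a description. At the upper quartile the order was the other way, with 162786 bp for members and 192586 bp for all windows. The members just outside the distance limit were Clec16a (2034 bp), Mxi1 (2458 bp) and Thap11 (2724 bp). The windows just inside it were Dnajb14 (1964 bp), Pcgf2 (1867 bp) and Dop1a (1790 bp), and 2853 of the 3023 windows with a peak (94.4%) had the start itself within the peak. At the CpG limit, the lowest member was Ccnb1ip1 at a ratio of 0.800041 and the highest window without a peak below it was St3gal5 at 0.799898. In 26 members (1.88%) a PHF2 peak lay within 2 kb of another annotated start of the same gene, among them Rb1, which encodes the retinoblastoma protein, Phc2, a Polycomb subunit, Tjp1, a tight junction protein, and Kansl1, a subunit of a histone acetyltransferase complex. At these genes the 5'-most start lacked a peak while another start had one.

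Most CpG-rich windows of developmental regulators had no peak. Over 7 lists of Hox, other homeobox, forkhead, T-box, Gata, Zic and Sox, basic helix-loop-helix and secreted morphogen genes, 62 of 88 CpG-rich windows had no peak, 70.5% (59.8% to 79.7%), against 31.4% of all CpG-rich windows. The share was 69.2% (36 of 52) at ratios of 0.8 to 0.9, against 35.1% of all windows there, and 72.2% (26 of 36) at 0.9 or more, against 26.2% of all (483 of 1843). The gap between these lists and all CpG-rich windows was thus present in both ranges of CpG content. The lists were chosen with results of these data known, and PHF2 peaks defined the members, so these shares are descriptions.

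All 8 CpG-rich windows of the 39 Hox genes had no PHF2 peak. Hox genes encode the homeodomain factors that pattern the body axis, and they stand in 4 clusters. Hoxa5 had the highest ratio (0.996), in an island of 1280 bp, and its nearest peak lay 45541 bp away. Hoxa13 (0.931), Hoxa4 (0.919), Hoxd13 (0.905), Hoxc12 (0.891), Hoxb7 (0.834), Hoxb9 (0.803) and Hoxd1 (0.802) followed. In the Hoxb, Hoxc and Hoxd clusters the nearest peak was 128444 bp, 220058 bp and 62411 bp from any Hox start.

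**Figure D2:**
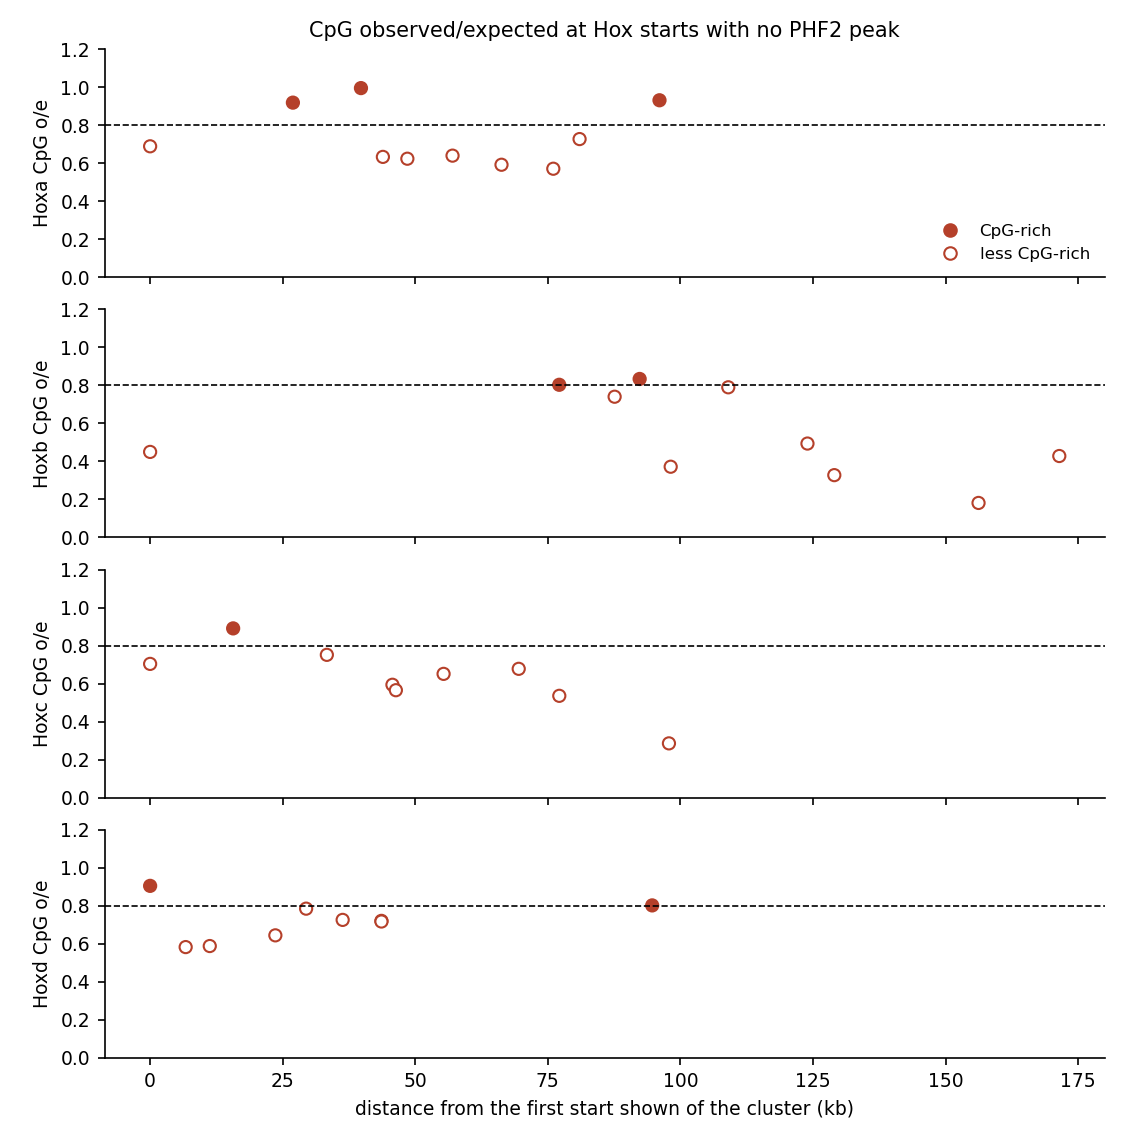
CpG observed/expected ratio of Hox windows with no PHF2 peak, against the distance in kb from the first such start of each cluster. Filled circles are the 8 CpG-rich windows, open circles less CpG-rich windows, and the dashed line marks the ratio of 0.8.

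Outside the Hox clusters, 27 of 31 CpG-rich homeobox windows had no peak, 87.1% (70.2% to 96.4%). Barhl2 (ratio 1.07), Pou4f1 (1.02) and En2 (1.00) had the highest ratios, and encode factors of retinal and spinal neurons, of sensory neurons and of the midbrain and hindbrain. Nkx6-1 and Nkx6-2, which encode ventral progenitor factors of the spinal cord, Lhx1, Lmx1b, Gsx1, Vax1, Dmbx1 and Gbx1, which act in regions of the developing brain and spinal cord, and Irx1, Irx2 and Irx4 were also members. Others encode factors of tissues outside the nervous system, such as Six2 of kidney progenitors, Hhex of liver and blood vessels, Barx1 of stomach and teeth, and Mixl1 and Gsc of gastrulation. The 4 homeobox windows with a peak were Gbx2 (score 560.84), Hlx (450.98), Pou3f2 (358.02) and Barx2 (220.01), and Pou3f2 encodes a factor of neural progenitors. The score is the authors' own value for each peak, has no stated scale and serves here only to rank peaks within a list whose scores ran from 100.02 to 3226.07 with a median of 229.09.

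Of 8 CpG-rich windows of proneural and lineage basic helix-loop-helix genes, 7 had no peak. They belonged to Tcf15 (ratio 1.06), Bhlhe23 (0.943), Tcf24 (0.911), Twist1 (0.871), Neurog2 (0.851), Tal1 (0.804) and Twist2. Neurog2 drives the differentiation of neurons, Twist1 and Twist2 act in mesenchyme and Tal1 in blood. The 1 with a peak was Olig1, which encodes a factor of the oligodendrocyte lineage, with a score of 1609.26. Both CpG-rich windows on the T-box list had no peak, Tbx3 and Mga, whose product pairs a T-box with another DNA-binding domain. The 1 CpG-rich window of 57 clustered protocadherin genes, Pcdhga11, had no peak either, at a ratio of 0.864.

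Secreted morphogens and their inhibitors gave 11 of 14 windows without a peak, 78.6% (49.2% to 95.3%). Bmp2 had the highest ratio (1.08), in an island of 1779 bp, 704658 bp from the nearest peak. Wnt5b (1.00), Wnt9a (0.997), Fgf18 (0.914), the BMP antagonist Nog (0.899) and Wnt4 (0.859) followed, beside Bmp6, Bmp8b, Gdf11, Wnt11 and Wnt2b. Wnt7a (score 485.08), Bmp7 (336.65) and Fgf20 (107.46) had a peak.

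The forkhead list and the Gata, Zic and Sox list had lower shares without a peak than the other developmental lists. Of 18 CpG-rich forkhead windows, 6 had no peak, 33.3% (13.3% to 59.0%), close to the share of all CpG-rich windows. That share depends on the setting, since windows of 1000 bp either side gave 58.3% (27.7% to 84.8%) against 19.9% of all, and a ratio of at least 0.7 gave 50% (29.1% to 70.9%) against 38.4% of all. The 6 were Foxc2, Foxf1 and Foxf2, of mesoderm and its derivatives, Foxd3, of neural crest, Foxi3, of the ear and branchial region, and Foxo6. Their islands had a median of 2247 bp. The 12 with a peak were Foxc1, the paralogue of Foxc2 and also of mesoderm (score 795.27, island 3184 bp), Foxj2, Foxk1, Foxk2, Foxm1, Foxn2, Foxn3, Foxo1, Foxo3, Foxp1, Foxp2 and Foxp4, and their islands had a median of 1426.5 bp. Sox30, which encodes a factor of the testis, was the 1 window without a peak among 7 of the Gata, Zic and Sox list. Sox2, Sox9, Sox11, Sox12, Sox1 and Zic2 had a peak, with scores of 102.3 (Sox1) to 2368.65 (Sox11).

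**Figure D3:**
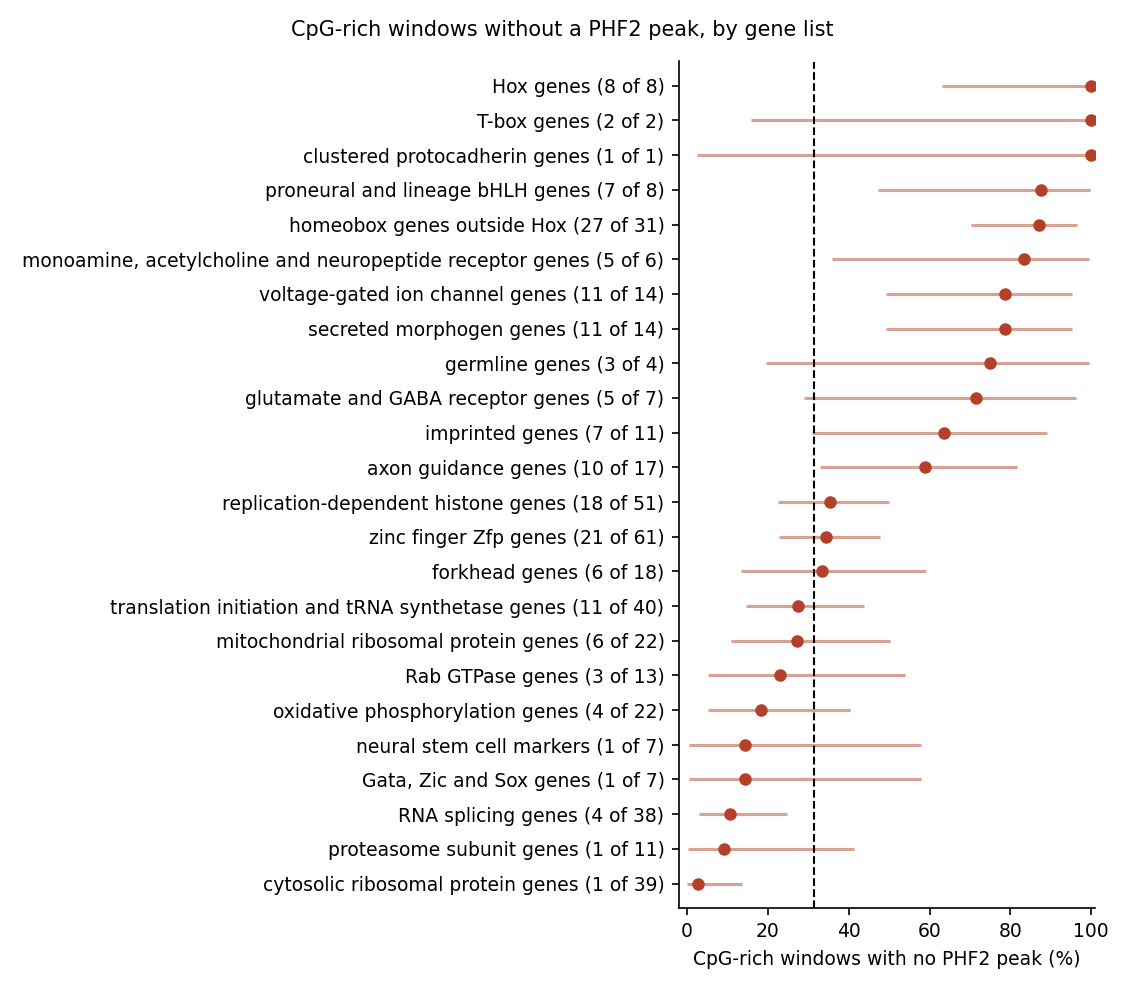
Share of CpG-rich windows with no PHF2 peak in each of the 24 gene lists that held a CpG-rich window, in percent, with exact 95% binomial intervals and the counts beside each name. The dashed line is the share over all CpG-rich windows, 31.4%, and the whole interval lies above it for the Hox, other homeobox, basic helix-loop-helix, morphogen, voltage-gated channel, monoamine to neuropeptide receptor and axon guidance lists, and below it for the cytosolic ribosomal protein and RNA splicing lists.

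Ion channels and transmitter receptors, many of which serve differentiated neurons, were also often without a peak. Over 3 lists, 21 of 27 CpG-rich windows lacked one, 77.8% (57.7% to 91.4%), against 31.4% of all. The share was 68.4% (13 of 19, 43.4% to 87.4%) at ratios of 0.8 to 0.9, against 35.1% of all there. At 0.9 or more it was 8 of 8 (63.1% to 100%), against 26.2% of all. Voltage-gated channels gave 11 of 14, among them Kcng3 (ratio 0.957), Cacna1i (0.951), Cacna1b (0.922) and Hcn2 (0.869). Kcnc1 (score 788), Kcnd3 (771.87) and Kcna3 (143.97) had a peak. Glutamate and GABA receptor genes gave 5 of 7, among them Grin1, Grik3, Gabbr2 and Gabra5. Their interval, 29.0% to 96.3%, holds the share of all CpG-rich windows. Receptors of monoamines, acetylcholine and neuropeptides gave 5 of 6 (35.9% to 99.6%), namely Htr7, Oprd1, Adra1d, Sstr4 and Chrna7. Axon guidance genes gave 10 of 17 (58.8%, 32.9% to 81.6%), but at a ratio of at least 0.9 the share was 20.0% (0.505% to 71.6%), against 26.2% of all. Those without a peak were the ephrins Efna2 and Efna5, the Eph receptors Epha7, Epha8 and Ephb2, the netrin receptors Unc5a and Unc5d, and Plxnd1, Sema6b and Slit3. Efnb2, another ephrin gene, had a peak with a score of 1268.71. Counting all 66 axon guidance genes at any CpG content, 26 had a peak, where 28.8% of all windows had one. Of the 49 less CpG-rich windows on this list, 19 had a peak.

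Germline and imprinted genes made small lists. Tdrd5, of the piRNA pathway, Stag3 and Meiob, of meiotic recombination, had no peak, and Zcwpw1, a meiotic reader of histone marks, had one, so 3 of 4 CpG-rich germline windows lacked a peak (75.0%, 19.4% to 99.4%). Of 11 imprinted windows, 7 lacked a peak (63.6%, 30.8% to 89.1%). They were Klf14, Mcts2, Kcnk9, Igf2r, Dio3, Cdkn1c and Rasgrf1, and Nnat, Peg12, Ube3a and H13 had a peak. The intervals of both lists hold the 31.4% of all CpG-rich windows. One parental copy of an imprinted gene may be silent, and the lists of called regions do not separate the parental copies.

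Housekeeping families had a lower share without a peak than all CpG-rich windows. Over 7 lists, 30 of 185 CpG-rich windows had no peak, 16.2% (11.2% to 22.3%). Cytosolic ribosomal protein genes gave 1 of 39 (2.56%, 0.0649% to 13.5%). That window was Fau, whose product is a ubiquitin-like protein fused to ribosomal protein S30, and it stands head to head with Mrpl49 in an island of 1181 bp, with a peak 3092 bp away. RNA splicing genes gave 4 of 38 (10.5%, 2.94% to 24.8%), which were U2af2, Srsf9, Prpf39 and Prpf3. Proteasome genes gave 1 of 11 (9.09%, 0.230% to 41.3%), which was Psmd8. Oxidative phosphorylation genes gave 4 of 22 (18.2%, 5.19% to 40.3%), namely Cox6a1, Ndufs7, Ndufa11 and the assembly factor Ndufaf8. Mitochondrial ribosomal protein genes (6 of 22, 27.3%) and genes of translation initiation and tRNA charging (11 of 40, 27.5%) had shares close to that of all CpG-rich windows, with Eif5b, Eif3c, Eif3f and Nars among those without a peak. Rab GTPase genes gave 3 of 13 (23.1%, 5.04% to 53.8%), which were Rab12, Rab23 and Rab40c. The proteasome, oxidative phosphorylation and Rab intervals hold the 31.4% of all CpG-rich windows. With only the higher-scoring PHF2 peaks these lists gave 63.6%, 63.6% and 76.9%, against 60.3% of all, and the other housekeeping lists stayed below. At a ratio of at least 0.9, oxidative phosphorylation genes gave 33.3% and mitochondrial ribosomal protein genes 28.6%, against 26.2% of all. The other housekeeping lists were below that share there. Zinc finger genes of the Zfp series gave 21 of 61 (34.4%, 22.7% to 47.7%), also close to the background.

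Most members belonged to none of these families. Of the 1382 windows, 1208 (87.4%) were in none of the 26 lists. The same held for 2748 of the 3023 CpG-rich windows with a peak (90.9%), so it is not particular to the members. The 1269 members outside the pooled developmental, channel and receptor, and housekeeping lists were 30.9% of 4105 such CpG-rich windows. By the letters of the gene symbol, 43 families had 10 or more CpG-rich windows. The highest shares without a peak were those of Ccdc genes (coiled-coil proteins, 12 of 23, 30.6% to 73.2%) and Kif genes (kinesins, 6 of 14, 17.7% to 71.1%). Lrrc genes (leucine-rich repeat proteins, 6 of 14, 17.7% to 71.1%) and Tmem genes (transmembrane proteins, 19 of 45, 27.7% to 57.8%) came next. Each of these intervals holds the 31.4% of all CpG-rich windows. The lowest shares were those of Rpl genes (0 of 19, which allows up to 15.8% where the limit for a count of 0 is taken as 3 counts of the total), Atp genes (0 of 16, up to 18.8%), symbols that begin with E and a digit (0 of 11, up to 27.3%) and Rps genes (1 of 20, the kinase gene Rps6kb1), followed by Usp genes (ubiquitin proteases, 2 of 22). A shared symbol is not a shared function for Ccdc, Lrrc and Tmem genes.

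The label of the cells could be set only against PHF2 peaks, since the files hold no expression. A PHF2 peak lay within 2 kb of 28.8% of all starts. Of 22 neural stem cell markers 16 had one, of 14 neuron markers 4 had one, close to that background, and of 21 markers of microglia, endothelium, blood and muscle 0 had one (a count of 0 allows up to 14.3%). Among 7 CpG-rich stem cell marker windows, Msi1, which encodes an RNA-binding protein of neural progenitors, was the 1 member. Its island had 1922 bp and the nearest peak lay 59637 bp away, while Msi2, its paralogue, had a peak with a score of 112.85. None of the neuron markers or of the markers of other cell types was CpG-rich by the criterion.

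CpG islands were shorter at windows without a peak. An island was taken as the union of all stretches of 200 bp with at least 50% GC and a ratio of at least 0.6, and the longest that met the window was measured. The median was 1161.5 bp at windows without a peak (95% interval of the median 1139 to 1182 bp) and 1286 bp at windows with one (1269 to 1303 bp), a difference of -124.5 bp. At matched CpG content the difference was -83 bp at ratios of 0.8 to 0.9, -73 bp at 0.9 to 1.0 and -255.5 bp at 1.0 to 1.1. At 1.1 or more it was 137 bp, the other way, over 6 windows without a peak. The 95% intervals of the 2 medians overlapped at 0.9 to 1.0 (1191 to 1344 bp without a peak, 1329 to 1386 bp with one) and at 1.1 or more. At 0.8 to 0.9 and at 1.0 to 1.1 they did not overlap. Islands of 1000 bp or less made up 31.1% of members (430 of 1382), against 19.02% of windows with a peak (575 of 3023). The share without a peak was 42.6% for islands over 500 and up to 1000 bp, 29.8% up to 1500 bp, 24.1% up to 2000 bp, 28.5% up to 3000 bp (98 of 344) and 13.3% above that (4 of 30). The decline with length was therefore not steady.

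**Figure D4:**
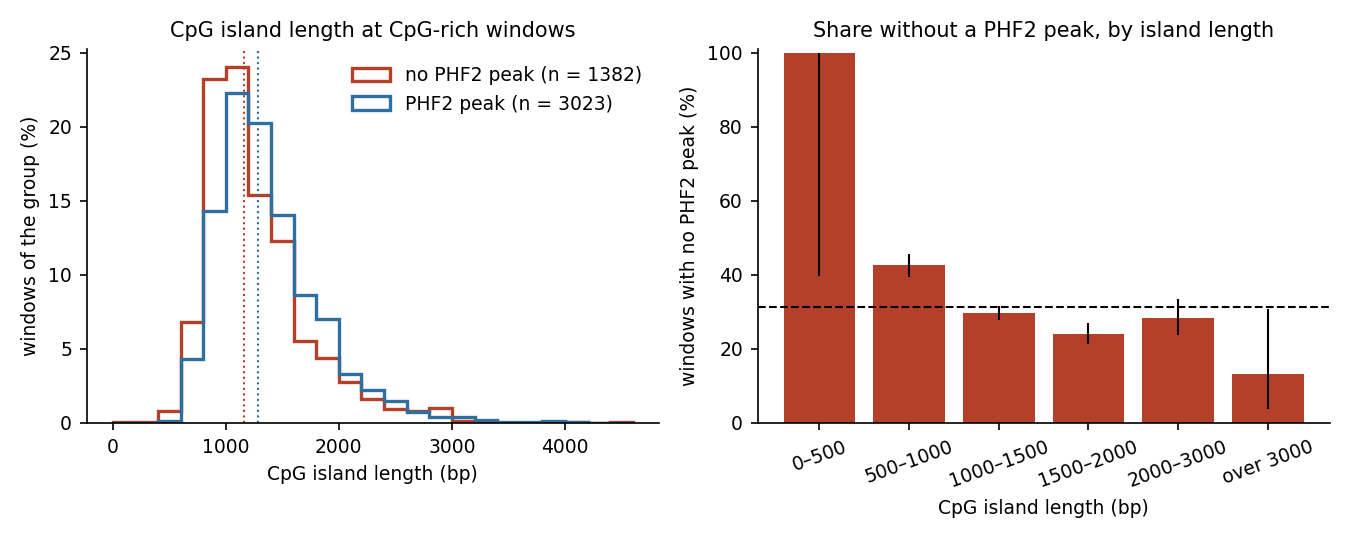
Left, CpG island length in bp at CpG-rich windows with no PHF2 peak and with one, as percent of each group, with dotted lines at the medians of 1161.5 and 1286 bp. Right, share of CpG-rich windows with no PHF2 peak by island length, with exact 95% binomial intervals and a dashed line at 31.4%; all 4 windows of the shortest class had no peak.

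The developmental members had long islands. Their 62 islands had a median of 1725 bp (1539 to 1951 bp), against 1146 bp (1128 to 1168 bp) for the 1269 members in no pooled list. They made up 20 of the 102 members with an island over 2000 bp. The 26 developmental windows with a peak had a median of 2101.5 bp (1173 to 2511 bp), whose interval holds that of the members. The longest island of any member was that of Tlx3, which encodes a homeodomain factor of spinal and brainstem neurons, with 4502 bp. Efna5 (4197 bp), Trim67 (3094 bp), which encodes a ubiquitin ligase of neurons, Sim2 (3025 bp), a midline factor, and Lhx1 (2986 bp) came next, with Foxf1, Nkx1-1, Tmem132e, Celsr1, a planar polarity cadherin, and Adcy5, an adenylate cyclase, between 2908 and 2979 bp. The longest islands with a peak belonged to Foxo3 (4105 bp), Ptma (3994 bp) and Hs3st3b1 (3862 bp), so the range of lengths overlapped almost entirely. Tlx3 and Fgf18, both members, lie on either side of the same nearest peak on chromosome 11, 40008 bp from it at Tlx3 and 14376 bp at Fgf18.

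H3K9me2 regions were scarce at CpG-rich windows, and the shares without and with a PHF2 peak differed by less than the counting error. The H3K9me2 list was not used to choose the members. A region lay within 2 kb of 35 of the 1382 starts without a peak, 2.53% (1.77% to 3.50%), and of 67 of the 3023 with one, 2.22% (1.72% to 2.81%), where all windows gave 3.56%. At matched CpG content the shares without and with a peak were 2.45% and 2.22% at ratios of 0.8 to 0.9, 2.28% and 2.10% at 0.9 to 1.0, and 4.88% (4 windows) and 2.84% (8 windows) at 1.0 to 1.1. Within 10 kb they were 16.5% and 16.9%, where all windows gave 18.9%. The median distance to the nearest region was 41384.5 bp without a peak and 37628 bp with one. A difference between the groups in these shares within 2 and 10 kb was therefore not detectable at these numbers. Each region was short, from 73 to 367 bp, and broad domains of weak signal would not appear in such a list.

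By distance, the density of regions was low at the start in both groups. Within 500 bp it was 1.45 regions per Mb (exact Poisson interval 0.175 to 5.23, 2 region centres) without a peak and 0.331 per Mb (0.00838 to 1.84, 1 centre) with one, against 5.72 per Mb (4.74 to 6.84) over all windows. From 0.5 to 2 kb it was 8.44, 7.39 and 10.2 per Mb in the same order of groups. From 10 to 50 kb it was 9.44 per Mb (8.88 to 10.0) around starts without a peak and 10.4 per Mb (9.99 to 10.8) around those with one, the widest gap between the groups beyond 2 kb.

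**Figure D5:**
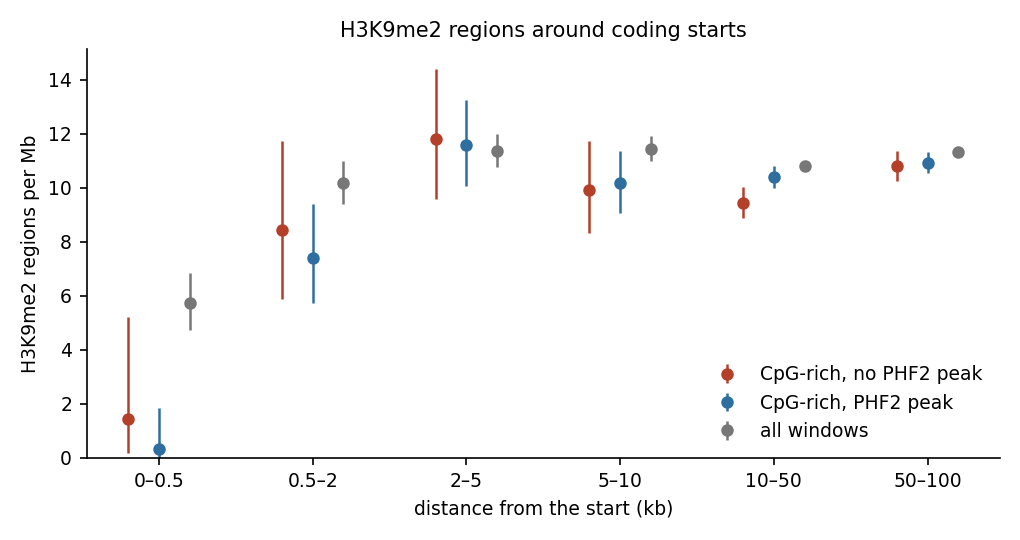
H3K9me2 regions per Mb, counted by their centres, by distance from the start in kb, around CpG-rich windows with no PHF2 peak, CpG-rich windows with a peak and all windows, with exact Poisson 95% intervals. The 2 CpG-rich groups overlap in their intervals at each distance, only slightly at 10 to 50 kb, which does not show that their densities are alike. Within 500 bp both points lie below that of all windows, but the interval with no PHF2 peak (0.175 to 5.23) overlaps that of all windows (4.74 to 6.84).

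The region closest to a member's start lay at Gm21738, 367 bp upstream (chr14:19419297-19419412). That window held no CpG island, and 37.7% of its stretches of 32 bases occur elsewhere in the genome. At Adap1, which encodes a GTPase-activating protein of neurons, a region lay 428 bp upstream (chr5:139326050-139326122), and at Sfi1, a centrosome gene, 470 bp upstream. These 3 were the members with a region within 500 bp, 0.217% (0.0448% to 0.633%). Among windows with a peak it was 1 of 3023 (0.0331%), and among all windows 132 of 20807 (0.634%). The next were Clptm1l (690 bp), Cog3 (719 bp), a Golgi tethering subunit, Ahr (777 bp), the dioxin receptor, and Taf7 (827 bp), a subunit of TFIID. Among developmental genes a region lay within 2 kb of Hoxa4 (1124 bp), En2 (1440 bp) and Sox30 (1830 bp), which is 3 of 62 members on those lists (4.84%) and 0 of 26 with a peak (a count of 0 allows up to 11.5%). These shares rest on few windows, beside 2.53% of all members and 3.56% of all windows. Of the germline members, Stag3 had one 1802 bp away.

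Fewer members than windows with a peak lay in runs. A run was counted where 3 or more consecutive protein-coding starts on a chromosome were all members. There were 29 such runs with 100 windows, 7.24% of members (5.93% to 8.73%), while windows with a peak formed 167 runs with 572 windows (18.9%, 17.5% to 20.4%). The groups differ in size, so their runs cannot be compared directly. Without regard to runs, the nearest other CpG-rich window between 10 and 100 kb away lacked a peak for 34.5% of members (237 of 686) and for 33.2% of windows with a peak (452 of 1362), a gap smaller than the counting error. By chromosome the share of CpG-rich windows without a peak went from 25.5% (20.4% to 31.1%) on chromosome 1 to 38.6% (32.1% to 45.5%) on chromosome 13. These are the extremes of 19 chromosomes.

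The longest run held 8 starts of the large histone cluster on chromosome 13, from Hist1h2an to Hist1h2br over 46.5 kb. Another run of 5 histone starts, from Hist1h2ah to Hist1h2bj, covered 7.65 kb. Replication-dependent histone genes gave 18 of 51 CpG-rich windows without a peak in all, 35.3% (22.4% to 49.9%). Without the repeated windows, an alternative added after the data were seen, the share was 19.4% (7.45% to 37.5%), below the 30.8% of all CpG-rich windows counted in that way. Of those 18, 12 had at least 50% of their sequence repeated elsewhere, measured as the share of 32-base stretches with another copy in the genome, and Hist1h2ap, Hist1h2br and Hist1h2ao were repeated over 100% of the window. The run of 7 starts on chromosome 17, from Phf10 through Ermard and Tcte3 to Gm3448, had at least 50% repeated stretches in each of its 7 windows. No source used here gives how the authors treated reads that match several places, and the part of that treatment was not tested. Over all members, 38 of 1382 (2.75%) had at least 50% repeated stretches, against 10 of 3023 with a peak (0.331%).

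Runs in unique sequence were short and of mixed function. The 4 starts of Rnf227, Chd3, Naa38 and Cyb5d1 stood together over 55.2 kb, and Chd3 encodes a remodeller of the NuRD complex. Irx1, Irx2 and Irx4 made a run of 3 over 1297 kb, the Irx cluster of chromosome 13, and Foxf1, Mthfsd and Foxc2 one of 31.8 kb with 2 forkhead genes. Dock5, Nefl and Nefm formed another, of which Nefl and Nefm encode neurofilament subunits of neurons. Bves, Lin28b and Hace1 had ratios of 1.08 to 1.09, the highest of any run, and Lin28b encodes a repressor of let-7 microRNAs. Larp7, Zgrf1 and Neurog2 stood together over 79.8 kb.

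Members shared a promoter region with another coding gene less often than windows with a peak. A start on the other strand within 1 kb, pointing away, was found at 136 of 1382 members, 9.84% (8.32% to 11.5%), and at 482 of 3023 windows with a peak, 15.9% (14.7% to 17.3%), where all windows gave 6.97%. The genes of members had a median length of 27370.5 bp and 4 annotated starts, against 32214 bp and 5 starts for windows with a peak. Developmental members had short genes, with a median of 5562.5 bp.

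Short sequence motifs were sought from 250 bases before to 50 bases after the start, on both strands. The E2F motif TTCCCGCC was in 5.35% of members, 5.59% of windows with a peak and 2.97% of all windows. The E-box CACGTG was in 13.2%, 11.0% and 7.82% in that order of groups, the CRE motif TGACGTCA in 5.50%, 4.23% and 2.43%, the TATA box TATAAA in 6.51%, 4.86% and 12.7%, and the ETS motif CCGGAAGT in 7.31%, 8.77% and 4.80%. The NRF1 motif GCGCATGC was in 6.15%, 6.98% and 3.45%, the CCAAT box CCAAT in 36.3%, 34.7% and 38.6%, and the GC box GGGCGG in 76.4%, 76.0% and 43.7%. For each of the 8 motifs the intervals of members and of windows with a peak overlapped, which does not show that the shares are alike, and no test was run. An E2F match can share letters with a GC box match, and a match is a description of the letters and not a site.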

How the data were processed

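Per the file headers, MACS in Galaxy made the deposited PHF2 peak list, and the submitters' processing notes list Bowtie2 and mm10. No source used here gives the version, control or settings, or the caller of the H3K9me2 list. The deposited score of each PHF2 peak is the authors' value, of no stated scale, and the deposited score of every H3K9me2 region is 0. Starts came from GENCODE M21 and sequence from RefSeq's GRCm38, which is mm10. Distances ran from the start to the nearest edge. Shares have exact binomial and medians order-statistic 95% intervals, computed with Python 3.11.15, numpy 2.4.6, pandas 2.3.3 and scipy 1.17.1, and the functions were tested on simulated data. The members and lists were chosen with earlier results of these data known. The genes named were, per list, up to 6 members by highest CpG ratio, the longest islands, those nearest an H3K9me2 region, the longest runs and those beside each limit. Other genes, among them the remaining members of a list, the most CpG-rich members and those with a peak, were named after their values were seen. A kinase gene whose symbol matched the morphogen names was taken off that list by function. The inputs were not analysed here. The alternatives tried were other CpG, GC, window, distance, start, island, region and run limits, a higher-scoring PHF2 list and chromosome X, and, added after the data were seen, leaving out repeated windows.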

Additional observations from a re-analysis of the deposited data

How the results depend on the processing

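No paired analysis was possible because each target had 1 sample. With a CpG ratio of at least 0.7, 2827 windows had no peak (38.4%), with a median island of 1075 bp and 14.1% in runs, and with 0.9 there were 483 (26.2%), 1280 bp and 2.69% in runs. Requiring 55% GC as well gave 1195 bp and 5.76% in runs. Windows of 1000 bp either side left 352 (19.9%), 1482 bp, 1.99% in runs and an island difference of -64.5 bp (-136 to 8 bp). With only the 2997 higher-scoring PHF2 peaks, 2657 windows had no peak (60.3%), 15.3% lay in runs and the island difference was -198 bp. Starts within 1000 bp counted once gave 3.91% in runs, runs of 5 or more 1.45%, and leaving out repeated windows, added after the data were seen, 5.88%. The stricter island definition gave 1387 bp. The share with an H3K9me2 region, without and with a peak, was 0.217% and 0.0331% within 500 bp, 16.5% and 16.9% within 10 kb, and 1.30% and 0.761% for regions longer than the minimum. Each setting admits other numbers of windows, peaks or regions, and no other cause was tested. Distances of 1 and 5 kb, peak centres, basic starts, any start and chromosome X kept the main shares, median and island difference within the counting interval. The number of windows without a peak, which has no such interval, lay between 1356 and 1445 in these settings. The island difference kept its sign in every alternative. Of 307 list shares under these alternatives, 290 stayed on the same side of the share over all CpG-rich windows. The Hox, other homeobox, basic helix-loop-helix, morphogen and cytosolic ribosomal lists did so in all 13. Peak lists of unknown depth limit what absence of a peak can show.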
